A study of Mus musculus with 2 samples.

Results

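Sialyl- and other glycosyltransferase genes were followed in a comparison of sorted CD8+ cytotoxic T cells with CD4+ helper T cells. The genes were those whose array probe carries a transcript accession of a mouse gene with a symbol starting with St3gal, St6gal, St8sia, Galnt, Gcnt, B3gnt, B4galt, Fut and a digit, or Mgat. This gave 72 genes on 113 probes, of 17176 named genes on 41170 probes. The labels describe both cell populations as splenocytes of wild-type mice of strain C57B6, with no treatment other than the sort, and each was hybridised to 1 one-colour Agilent array after linear amplification of 0.5 ug of RNA. The labels give neither the age and number of the mice nor the sort markers. Because each population has 1 array, the populations could not be compared by a test, and every difference below is between these 2 arrays.

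Glycosyltransferases of the Golgi apparatus build the sugar chains of glycoproteins and glycolipids by moving single sugars from nucleotide donors onto a growing chain. Galnt enzymes start mucin-type O-glycans, Gcnt enzymes branch them, Mgat enzymes branch N-glycans, and B3gnt and B4galt enzymes extend chains with N-acetylglucosamine and galactose. Sialyltransferases and fucosyltransferases add the terminal sugars. In T cells the fucosyltransferase Fut7, the core 2 branching enzyme Gcnt1 and sialyltransferases of the St3gal family are known for making sialyl Lewis X on PSGL-1, the ligand through which activated cells bind selectins on vessel walls.

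The promoters of St8sia6, Fut7 and St3gal6 are shown. St8sia6, higher in CD4+ cells, had the largest difference. Among the genes at least 2-fold apart, 6 had a promoter window. Of these only Fut7, higher in CD4+ cells, and St3gal6, higher in CD8+ cells, held a match to the letters below. St3gal2 and B3gnt9 had no window and were not searched. The windows of Gcnt1, B3gnt5 and Fut4 held no match and are not printed. Each sequence runs from 250 bases before to 50 bases after a start of the gene in RefSeq (GRCm38.p6). Fut7 and St3gal6 have 2 windows each in that table, and the window printed is the one that holds matches, while the other window of each gene holds none. Capitals mark any match, on either strand, to the RUNX core TGTGGT, the GATA core AGATAA or the T-box core AGGTGT, letters bound by factor families of T cell lineages, and no matches overlapped.
St8sia6, chr2:13793471-13793770, minus strand: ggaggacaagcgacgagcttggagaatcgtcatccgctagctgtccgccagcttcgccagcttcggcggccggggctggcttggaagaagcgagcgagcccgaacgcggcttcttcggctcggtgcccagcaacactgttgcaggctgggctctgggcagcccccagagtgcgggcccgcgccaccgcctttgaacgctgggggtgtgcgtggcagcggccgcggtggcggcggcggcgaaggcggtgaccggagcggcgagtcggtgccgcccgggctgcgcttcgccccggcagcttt
Fut7, chr2:25422992-25423291, plus strand: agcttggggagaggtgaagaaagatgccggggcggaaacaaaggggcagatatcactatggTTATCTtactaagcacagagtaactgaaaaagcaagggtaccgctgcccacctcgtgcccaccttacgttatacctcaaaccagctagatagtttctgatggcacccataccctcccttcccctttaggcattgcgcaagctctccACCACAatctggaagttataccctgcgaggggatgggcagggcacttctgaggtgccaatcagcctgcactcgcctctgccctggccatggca
St3gal6, chr16:58524204-58524503, minus strand: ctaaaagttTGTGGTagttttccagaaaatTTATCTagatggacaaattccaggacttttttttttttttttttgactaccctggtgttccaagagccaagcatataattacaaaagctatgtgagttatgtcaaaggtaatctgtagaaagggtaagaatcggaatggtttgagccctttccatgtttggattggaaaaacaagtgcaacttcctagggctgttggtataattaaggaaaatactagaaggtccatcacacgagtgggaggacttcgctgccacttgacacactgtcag
The RefSeq promoter table held 10 windows for 6 of the 8 genes that were at least 2-fold apart. The RUNX letters were in 1 of the 3 windows of the genes higher in CD8+ cells, in 1 of the 7 windows of those higher in CD4+ cells and in 16.8% of all 32851 windows. The GATA letters were likewise in 1 of 3 and 1 of 7 windows, against 11.2% of all windows. The T-box letters were in 0 of 3 and 0 of 7 windows, against 13.7% of all. A match is a run of letters and no evidence of binding, and its absence says nothing about the factor.

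The arrays had 58.6% (CD8+) and 63.1% (CD4+) of their non-control spots well above background, the scanner software's call for a spot that stands clear of its surroundings. Values below are the processed signal, the spot's brightness after background subtraction, with the software's own error estimate for a spot. Differences were taken after log2 transformation and scaling of each array to its 75th percentile, as CD8+ minus CD4+, so that a negative value means a higher level in CD4+ cells. Scaling added 0.18 to each log2 difference. Between probes of a gene the log2 difference had an SD of 0.24 (root mean square over 3972 genes), and between spots of a probe 0.17 (154 probes). These spreads are technical, and no spread between biological replicates is available. The labels held, with a log2 difference of 6.72 for Cd8a and -2.04 for Cd4.

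Of the 72 genes, 49 were well above background on both arrays (68.1%, against 69.6% of all named genes), 4 on the CD4+ array alone (background 5.37%), 0 on the CD8+ array alone (background 1.04%) and 19 on neither (26.4%, against 24.0% of all named genes). Among the 49, 3 were higher in CD8+ cells by 2-fold or more (6.12%, with a background of 1.94% of all genes) and 5 were higher in CD4+ cells by 2-fold or more (10.2%, with a background of 3.83%). In either direction 8 of the 49 were 2-fold apart (background 5.77%) and 16 were 1.5-fold apart (background 14.0%). At 1.5-fold the counts were 7 (14.3%, background 5.5%) and 9 (18.4%, background 8.54%). These counts are small, and nothing particular to the family is read from them. The remaining 33 genes lay within 1.5-fold, and the median of the 49 was -0.02, beside 0.02 over all 11957 genes above background on both arrays. The family therefore showed a few genes far from 0 on both sides and no common shift.

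**Figure D1:**
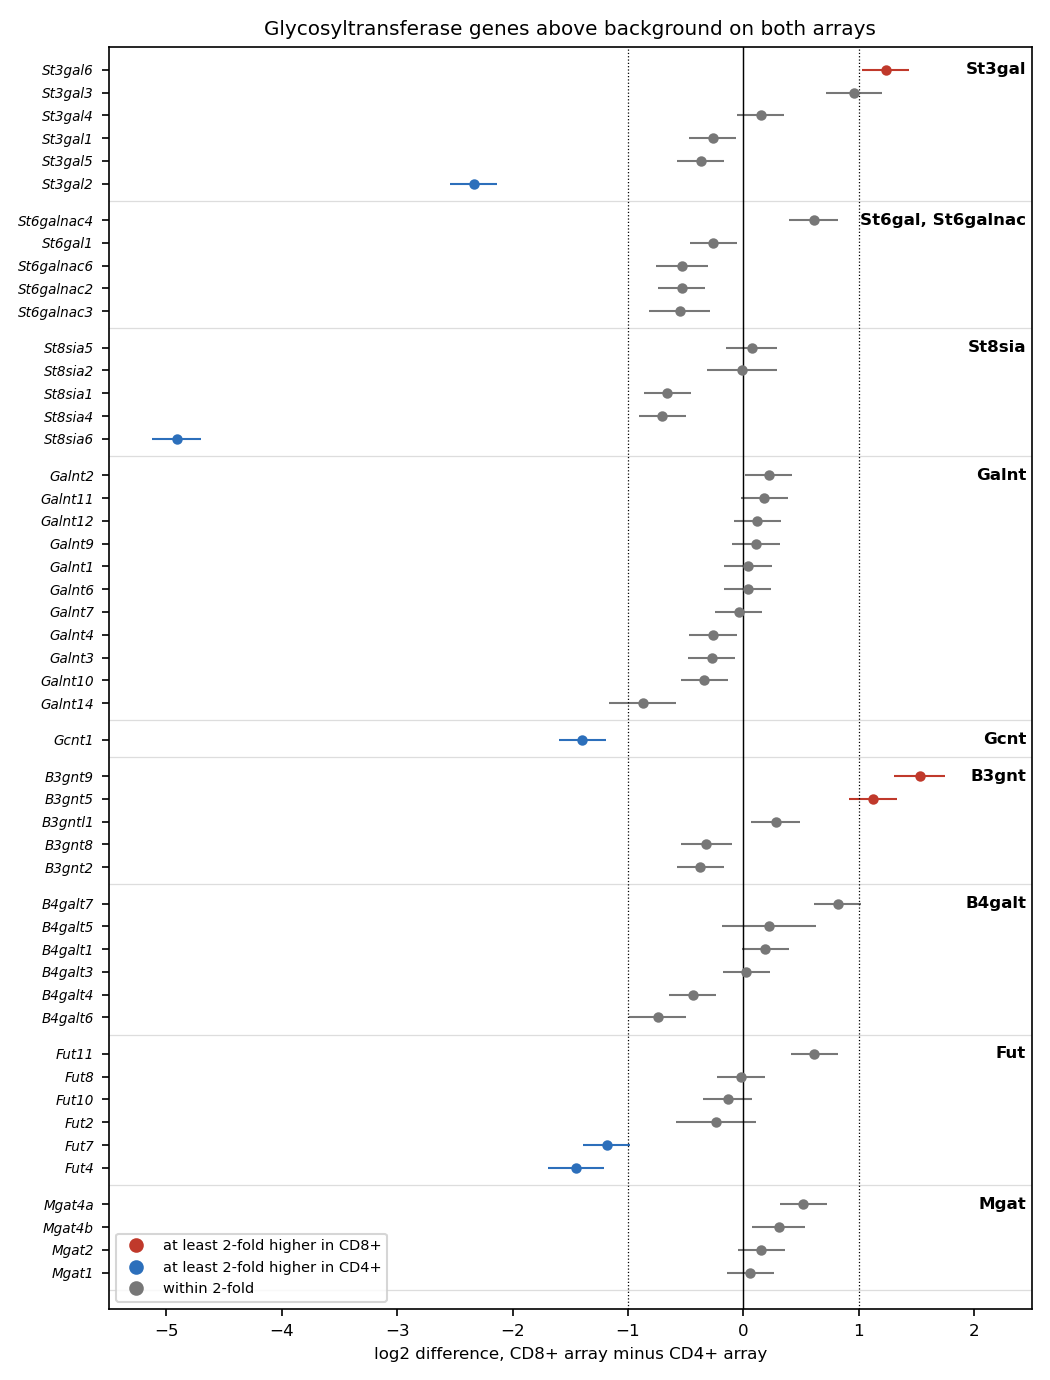
Log2 difference (CD8+ minus CD4+) of the 49 glycosyltransferase genes well above background on both arrays, grouped by symbol. Points are single probes, bars are the software's spot errors of both arrays combined, dotted lines mark 2-fold; St8sia6 lies farthest left at -4.91 and B3gnt9 farthest right at 1.53.

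The α2,8-sialyltransferases, which add sialic acid to sialic acid, held the largest difference of the 72 genes. St8sia6, which in mouse adds such pairs mainly to O-glycans, had a processed signal of 77.8 ± 8.39 on the CD8+ array and 2644 ± 264 on the CD4+ array (probe A_51_P471791). The gene was thus well above background in both cell populations and 30.1-fold higher in CD4+ cells. Its other probe gave 3.20 ± 3.20 on the CD8+ array, not well above background, and 136 ± 13.9 on the CD4+ array.

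The 2 genes for polysialic acid and ganglioside chains with high signals were also higher in CD4+ cells, by less. St8sia4, a polysialyltransferase, had 7073 ± 707 on the CD8+ array and 13009 ± 1301 on the CD4+ array, a log2 difference of -0.70, and its 2 probes gave -0.70 and -0.67. St8sia1, which makes the ganglioside GD3, had 2379 ± 238 on the CD8+ array and 4254 ± 425 on the CD4+ array, a log2 difference of -0.66. Its second probe above background on both arrays gave -0.17, so the size of that difference rested on the probe. St8sia2, the other polysialyltransferase, and St8sia5, a ganglioside enzyme, had log2 differences of -0.01 and 0.07, within the spot errors of 0.30 and 0.22. St8sia3 was not well above background in either population.

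The α2,3-sialyltransferases were split, with all 6 genes well above background on both arrays. St3gal2, which caps galactose on O-glycans and gangliosides, had 219 ± 22.1 on the CD8+ array and 1248 ± 125 on the CD4+ array (probe A_52_P408530), which made it 5.05-fold higher in CD4+ cells. A dimmer probe of St3gal2 lay in the same direction, at 7.75 ± 3.66 on the CD8+ array, not well above background, and 23.1 ± 4.21 on the CD4+ array. St3gal6, which caps lactosamine chains and can make sialyl Lewis X, had 1709 ± 171 on the CD8+ array and 823 ± 82.3 on the CD4+ array (probe A_51_P281333), which made it 2.35-fold higher in CD8+ cells. St3gal6 rested on this 1 probe. St3gal2 and St3gal6 thus differed in opposite directions, each by more than the technical spread.

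St3gal3, with overlapping substrates to St3gal6, had 72.4 ± 7.94 on the CD8+ array and 42.1 ± 5.32 on the CD4+ array, a log2 difference of 0.96, while its second probe gave 0.43. The difference reached 2-fold with scaling to the array medians or when normalized by quantiles or loess, and was smaller with normexp (0.58), the series values (0.71) and the mean over probes (0.69). St3gal4, the other enzyme of lactosamine chains, had 0.15. St3gal1, which caps the core 1 O-glycan and is known for its role in CD8+ T cell survival in mice, had 3068 ± 307 on the CD8+ array and 4166 ± 417 on the CD4+ array. Its log2 difference of -0.26 was close to the SD between probes. St3gal5, which makes the ganglioside GM3, had -0.37, and -0.53 with the series values.

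**Figure D2:**
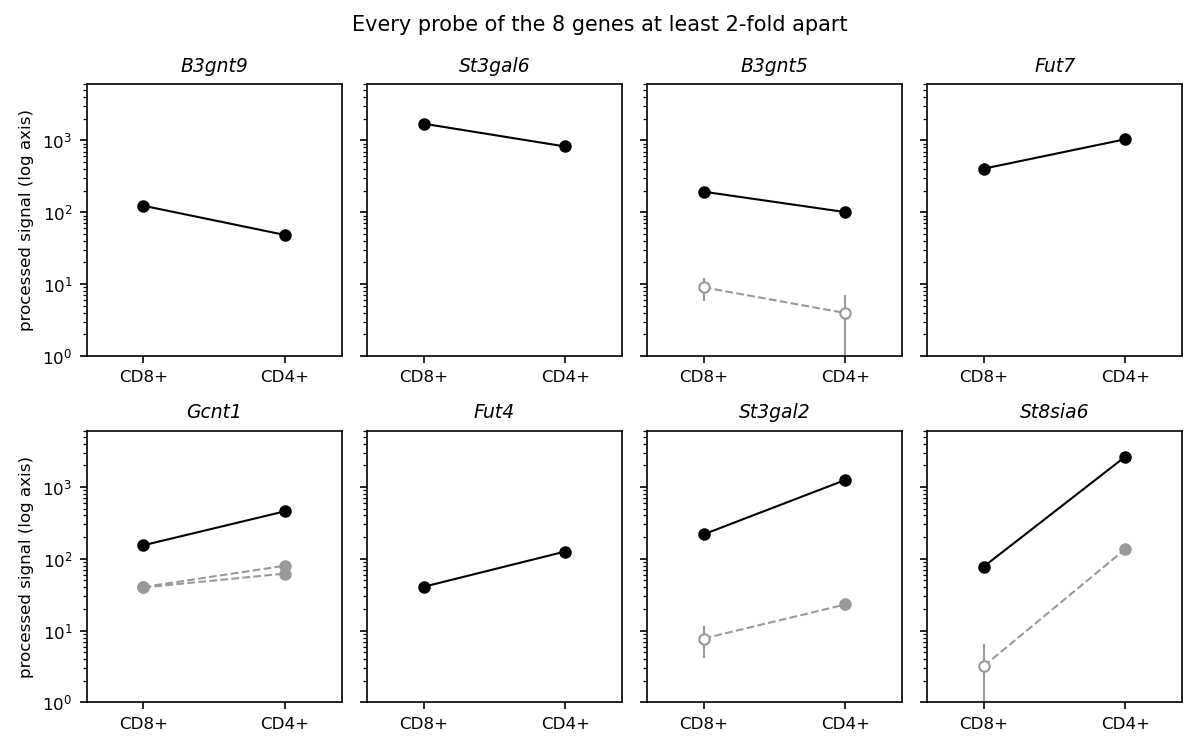
Processed signal (log axis) of every probe of the 8 glycosyltransferase genes at least 2-fold apart, on the CD8+ array (left) and the CD4+ array (right) of each panel. Black marks the probe used and grey the others, open circles are not well above background, bars are the software's spot error, and all probes of a gene slope the same way.

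Among the α2,6-sialyltransferases no gene was 2-fold apart. St6gal1, which caps N-glycans of lymphocytes, had 3273 ± 327 on the CD8+ array and 4434 ± 443 on the CD4+ array, a log2 difference of -0.26. St6galnac4, which adds a further sialic acid to sialylated core 1 O-glycans, was 1.52-fold higher in CD8+ cells, with 138 ± 14.2 there and 102 ± 10.7 on the CD4+ array. St6galnac2 (-0.54), St6galnac3 (-0.55) and St6galnac6 (-0.53) lay on the other side, all short of 1.5-fold. With normexp on the median signal St6galnac2 had -0.36, St6galnac3 -0.09 and St6galnac6 -0.15, and St6galnac4 had 0.50 in place of 0.61. The second probe of St6galnac2 gave -0.07. St6galnac5 was well above background in CD4+ cells alone, with a bound of at least 1.04-fold, and St6galnac1 on neither.

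Over all 19 sialyltransferase genes, 16 were measured on both arrays, of which 5 had the higher value in CD8+ cells and 11 in CD4+ cells. Their median log2 difference was -0.32, against 0.04 for the 33 other glycosyltransferases measured on both arrays. Of all 11957 genes above background on both arrays, 53.7% had the higher value in CD8+ cells. The 11 included St8sia2 at -0.01, which was 0.25 with normexp on the median signal. The class median of the α2,6-sialyltransferases was -0.53, and -0.15 with normexp. No test of sialyltransferases against the other glycosyltransferases was possible, and nothing particular to them is read from these counts.

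The fucosyltransferases included 2 genes at least 2-fold higher in CD4+ cells. Fut7, the α1,3-fucosyltransferase of selectin ligands, had 404 ± 40.6 on the CD8+ array and 1038 ± 104 on the CD4+ array (probe A_51_P445473), a 2.27-fold higher level in the CD4+ array. Fut4, the second α1,3-fucosyltransferase that contributes to these ligands, had 40.7 ± 5.37 on the CD8+ array and 126 ± 13.1 on the CD4+ array (probe A_52_P200458), a 2.74-fold higher level there, or 1.52-fold with normexp on the median signal. Each gene rested on 1 probe.

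Fut11 was 1.53-fold higher in CD8+ cells, with 409 ± 41.0 there and 301 ± 30.3 on the CD4+ array. Fut8, which adds the core fucose of N-glycans, had 204 ± 20.6 on the CD8+ array and 234 ± 23.6 on the CD4+ array, a log2 difference of -0.02. Fut10 (-0.14) and the α1,2-fucosyltransferase Fut2 (-0.24), which makes the H antigen, were within the technical spread. Fut1, its close relative, and Fut9, which makes Lewis X in brain, were not well above background in either population.

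Gcnt1, the enzyme that makes the core 2 branch on which selectin ligands are built, was measured by 3 probes on both arrays. The brightest, of transcript NM_173442, had 154 ± 15.8 on the CD8+ array and 458 ± 45.9 on the CD4+ array, 2.63-fold higher in CD4+ cells. The probes of transcript NM_010265 gave smaller differences in the same direction, of -0.81 and -0.46 on the log2 scale against -1.40. The mean over the 3 probes, -0.89, was short of 2-fold. Gcnt2, which branches lactosamine chains, was well above background in CD4+ cells alone (at least 1.36-fold), and Gcnt3 on neither.

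Among the B3gnt genes 2 were at least 2-fold higher in CD8+ cells. B3gnt9, assigned to this family by its sequence, had 123 ± 12.7 on the CD8+ array and 48.2 ± 5.49 on the CD4+ array (probe A_51_P389864), 2.88-fold higher in CD8+ cells. B3gnt9 rested on this 1 probe, which had a low signal on the CD4+ array. B3gnt5, which starts lacto-series glycolipids from lactosylceramide, had 193 ± 19.6 on the CD8+ array and 100.4 ± 10.5 on the CD4+ array (probe A_52_P555664), 2.17-fold higher in CD8+ cells. The second B3gnt5 probe was not well above background in either population.

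B3gnt2, the main enzyme of poly-lactosamine extension, had 2659 ± 266 on the CD8+ array and 3897 ± 390 on the CD4+ array. Its 2 probes had log2 differences of -0.38 and -0.32. B3gntl1 and B3gnt8, an extension enzyme that acts with B3gnt2, had 0.28 and -0.32. B3gnt3 was well above background in CD4+ cells alone (at least 1.28-fold), and B3gnt4 and B3gnt7 on neither. The 4 genes of the CD4+ array alone, B3gnt3, Gcnt2, Mgat5b and St6galnac5, all lay near the detection limit there, with signals from 17.4 to 22.6. Their bounds ran from 1.04-fold to 1.36-fold, so 0 reached 2-fold, a size that 16.4% of all genes of the CD4+ array alone reached.

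The galactosyltransferases of the B4galt group had no gene 2-fold apart. B4galt7, which builds the linker of glycosaminoglycans, had 654 ± 65.5 on the CD8+ array and 420 ± 42.1 on the CD4+ array, 1.76-fold higher in CD8+ cells. B4galt6, a lactosylceramide synthase, had 36.1 ± 4.81 on the CD8+ array and 68.2 ± 7.54 on the CD4+ array, 1.67-fold higher in CD4+ cells. With normexp background correction of the median signal, B4galt6 had -0.18 in place of -0.74, and B4galt7 had 0.57 in place of 0.82, just short of 1.5-fold. B4galt5, the other lactosylceramide synthase, had 0.22 with a spot error of 0.41.

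B4galt1, the main galactosyltransferase of N-glycans, had 8092 ± 809 on the CD8+ array and 8028 ± 803 on the CD4+ array, a log2 difference of 0.19. Its 3 probes gave 0.19, 0.22 and -0.22, so that no direction could be given. B4galt3 (0.02) and B4galt4 (-0.44) were within 1.5-fold, and B4galt2 was not well above background in either population.

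Of the 17 Galnt genes, which start O-glycans, 11 were measured on both arrays, 10 of them within 1.5-fold, and their median was 0.04, which was slightly negative after quantile or loess normalization and when scaled by detected probes alone. Galnt10, with 12488 ± 1249 on the CD8+ array and 17864 ± 1786 on the CD4+ array, had a log2 difference of -0.34. Of the others, Galnt1 (0.04), Galnt2 (0.22), Galnt6 (0.04), Galnt7 (-0.04), Galnt9 (0.11), Galnt11 (0.18) and Galnt12 (0.12) lay near 0, and Galnt3 (-0.28) and Galnt4 (-0.26) slightly to the CD4+ side. Galnt13, Galnt16, Galnt17, Galnt18, Galntl5 and Galntl6 were not well above background in either population. Galnt14 alone passed 1.5-fold, at 25.3 ± 4.08 on the CD8+ array and 52.3 ± 6.12 on the CD4+ array (log2 difference -0.87), and with normexp it had -0.12.

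Of the 10 Mgat genes only 4 were measured on both arrays, and these lay between 0.06 and 0.52. Mgat1, which opens the way to complex N-glycans, had 2309 ± 231 on the CD8+ array and 2503 ± 250 on the CD4+ array (log2 difference 0.06). Mgat2, which starts the second antenna, had 1550 ± 155 on the CD8+ array and 1575 ± 157 on the CD4+ array (0.15). The branching enzymes Mgat4a and Mgat4b had 0.52 and 0.30. Mgat5, the branching enzyme whose loss lowers the activation threshold of mouse T cells, had 5.30 ± 3.33 on the CD8+ array and 3.34 ± 3.33 on the CD4+ array. Neither signal was well above background, and no difference can be given for its 1 probe. Mgat3, Mgat4c, Mgat4d and Mgat4f were not well above background in either population, and Mgat5b was above it on the CD4+ array alone.

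**Figure D3:**
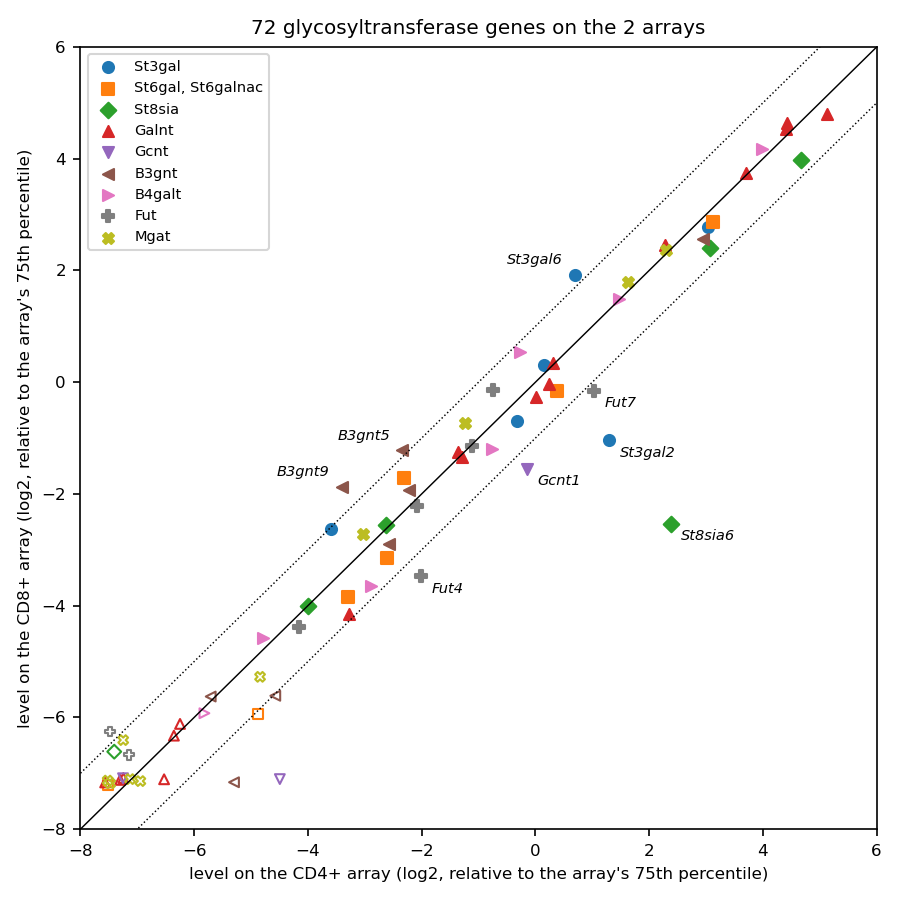
Level of the 72 glycosyltransferase genes on the CD8+ array (vertical axis) and the CD4+ array (horizontal axis), as log2 relative to each array's 75th percentile. Filled symbols are well above background on both arrays, open symbols are not, dotted lines mark 2-fold, and the 8 named genes lie outside them.

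Genes that feed, prepare, remove or read these glycans were listed beside the transferases. Of 77 such genes in 7 lists, 75 had a named probe and 66 were above background on both arrays, of which 33 had the higher value in each of the 2 arrays. None was at least 2-fold higher in CD8+ cells and 3 were in the CD4+ array (backgrounds 1.94% and 3.83%), with a median of -0.004. At 1.5-fold the counts were 6 in CD8+ cells (9.09%, background 5.5%) and 10 in CD4+ cells (15.2%, background 8.54%). For nucleotide sugar supply 20 of 20 genes were within 2-fold with a median of -0.04. Slc35a1, the transporter of CMP-sialic acid into the Golgi, had 0.60, and Gne, the first enzyme of sialic acid synthesis, had 0.53. Slc35c1, the transporter of GDP-fucose, had 28713 on the CD8+ array and 27364 on the CD4+ array (0.25).

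N-glycan trimming genes (8 of 8 measured) had a median of 0.14 and none was 2-fold apart, with Mogs, the first glucosidase, at 0.26. The O-glycan core list (5 of 7 measured, median -0.04) held C1galt1, the core 1 synthase, at 0.19 and its chaperone C1galt1c1 at -0.19. In it B3galt5 had -0.90, and B3galt1 was well above background in CD4+ cells alone (at least 1.26-fold). B4galnt1, a ganglioside synthase among the 3 measured glycolipid genes (median 0.30), had 5543 on the CD8+ array and 3535 on the CD4+ array, a log2 difference of 0.83. B3galnt1 of the same list had -0.82, and was past 2-fold with the mean over probes. The 8 sulfotransferase genes had a median of -0.20, with Chst12 at -0.32 and none 2-fold apart.

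Of the genes for removal and modification of sialic acid (7 of 8 measured, median -0.07), Npl, the lyase that breaks down sialic acid, had 56.6 on the CD8+ array and 154.7 on the CD4+ array, 2.42-fold higher in CD4+ cells. Cmah, which makes the glycolyl form of sialic acid in mouse, had 2829 on the CD8+ array and 1649 on the CD4+ array (0.96, and over 2-fold with median scaling). The sialidase gene Neu1 had -0.07. Among glycan-binding receptors and carriers (15 of 19 measured, median 0.16 without saturated probes and -0.01 after quantile normalization), Selplg, which encodes PSGL-1, had 32352 on the CD8+ array and 22480 on the CD4+ array, a log2 difference of 0.70. Selplg thus differed in the opposite direction to Fut7, Fut4 and Gcnt1, whose products decorate it. The St3gal genes of lactosamine chains, St3gal6 (1.23), St3gal3 (0.96) and St3gal4 (0.15), had the higher value in CD8+ cells, as Selplg did. Siglech, a lectin of plasmacytoid dendritic cells, was 6.28-fold higher and Siglec1, sialoadhesin of macrophages, 2.62-fold higher in CD4+ cells. Ptprc, the heavily glycosylated CD45, was saturated, so that its difference is not known.

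Markers of other cell types and of T cell subsets were listed as well, and some of them also differed between the 2 arrays. Of all genes above background on both arrays, 3.83% were at least 2-fold higher in CD4+ cells and 1.94% in CD8+ cells. Of the dendritic cell markers, 3 of 5 were at least 2-fold higher in CD4+ cells, while Xcr1 (0.35) was higher in CD8+ cells. The summed signal of this list was 1055 on the CD8+ array and 2968 on the CD4+ array, mostly from Itgax, at 785 (CD8+) and 2198 (CD4+). This sum and those below are of the processed signal before scaling of the arrays. Of the regulatory T cell markers, 2 of the 3 measured on both arrays were at least 2-fold higher in CD4+ cells, the other 3 (Foxp3, Il2ra and Nrp1) were well above background in CD4+ cells alone, and the sums were 16358 (CD8+) and 35415 (CD4+). Tnfrsf18 made up most of these sums, at 16138 (CD8+) and 33306 (CD4+), while Ctla4 was 15.6-fold and Foxp3 at least 21.3-fold higher in CD4+ cells. The memory and effector list had 1 of 8 at least 2-fold higher in CD8+ cells and 4 in the CD4+ array, with sums of 77286 (CD8+) and 93545 (CD4+) and a median log2 difference of -1.65. In it Ly6c2 was 3.39-fold higher in CD8+ cells, and Klrg1 was 18.5-fold and S100a4 12.2-fold higher in CD4+ cells. Cxcr3 (0.53) and Il2rb (0.47) also had the higher value in CD8+ cells. Plasma cell markers had 2 of 5 and NK cell markers 2 of 4 measured genes at least 2-fold higher in CD4+ cells, and myeloid markers 1 of 7 (Lyz2). Their sums were 1449, 801 and 11424 on the CD8+ array and 2741, 1707 and 15717 on the CD4+ array. Adgre1 made up most of the myeloid sums, at 5908 (CD8+) and 9274 (CD4+).

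B cell markers were higher in CD8+ cells in 7 of 7 genes (53.7% of all genes above background on both arrays), none by 2-fold. Their sums were 13174 on the CD8+ array and 9582 on the CD4+ array, mostly from Cd79b, at 9159 (CD8+) and 5789 (CD4+). The platelet sums were 378 (CD8+) and 283 (CD4+). Of the platelet markers measured on both arrays, 3 of 4 were at least 1.5-fold higher in CD8+ cells (background 5.5%), none by 2-fold. Gp1bb (-0.20) had the higher value in CD4+ cells. Itga2b was well above background in CD8+ cells alone (at least 2.32-fold). Of the NK cell markers, Klra8 (0.44) had the higher value in CD8+ cells, and Klra4 was not well above background in either population. The part of these cells in the differences of the glycosyltransferase genes was not tested, and in sorted bulk cells a larger share of a cell type cannot be told apart from more RNA per cell.

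For the 16 genes at least 1.5-fold apart, the differences were smaller with normexp on the median signal and with the authors' series values. Both settings start from another signal column as well as treating background differently. With normexp, St8sia6 was 15.8-fold and St3gal2 4.34-fold higher in CD4+ cells, and these were the only 2 of the 8 genes past 2-fold. With the authors' series values, which carry no background subtraction, St8sia6, St3gal2 and Gcnt1 remained past 2-fold. B3gnt9 was then 1.98-fold, St3gal6 1.97-fold and B3gnt5 1.87-fold higher in CD8+ cells, and Fut4 was 1.71-fold and Fut7 1.99-fold higher in CD4+ cells. All 16 genes at least 1.5-fold apart kept their direction in each of the 10 or 11 alternatives that measured them. With no background filter, with outlier spots kept and without saturated probes, all 16 values equalled the main value. The scalings shift all genes alike, so several of these alternatives say little about direction.

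**Figure D4:**
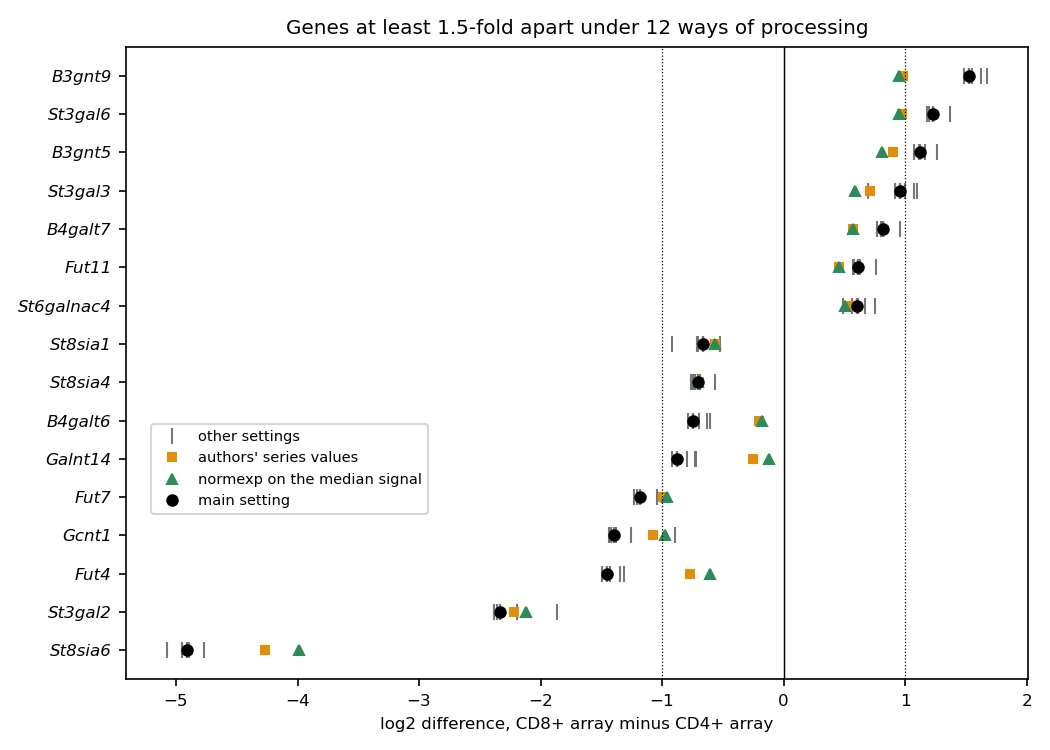
Log2 difference (CD8+ minus CD4+) of the 16 glycosyltransferase genes at least 1.5-fold apart, under the main setting and each alternative that measured the gene. Dotted lines mark 2-fold; St8sia6 and St3gal2 stay beyond it in every setting shown, and no gene crosses 0.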

How the data were processed

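RNA of sorted CD8+ and CD4+ T cells was hybridised to 1 one-colour Agilent array each. The deposited intensity values are scanner output of Agilent Feature Extraction (10.1.1.1 per the file headers, 9.1 per the submitters' processing notes), with a mm9 annotation per the file headers. The authors' series values equal the median intensity at 45018 of 45018 spots and are on a linear scale without background subtraction or scaling.

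From the deposited intensity, log2 values were computed after scaling each array to the 75th percentile of its 43379 non-control spots (449.9 on the CD8+ array and 508.4 on the CD4+ array). Outlier spots (92 and 99) were left out and spots of a probe were averaged. A probe counted as above background when at least 0.5 of its spots did. Probes were named by accession through RefSeq (GRCm38.p6): 24840 of 41170 had 1 symbol, 0 had several and 16330 had none. Of 82 reference genes with these symbol starts, B3gnt6, Fut4-ps1, Galnt15, Galnt5, Galnt6os, Gcnt4, Gcnt7, Mgat4e, St6gal2 and St8sia3os had no named probe.

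A gene took its brightest probe above background, preferring both arrays. For a gene above background on 1 array, the fold is a bound against the lowest signal well above background on the other. Named with values were genes at least 1.5-fold apart, the brightest gene of each class or list and, for small classes, the rest; a few others were added for their known role after their values were seen. Members, lists and motifs were chosen with earlier results of these data known. Each group has 1 array, so nothing was tested; the precision is limited by the number of arrays. The scripts were tested on simulated data. Python 3.11.15, pandas 2.3.3 and limma 3.58.1 in R 4.3.3 were used. The erythroid marker list is not reported here. Alternatives covered background correction (normexp, offset 50, on the median signal, since the files give no mean signal), scaling, normalization, probe choice, filters and fold.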

Additional observations from a re-analysis of the deposited data

How the results depend on the processing

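The count of glycosyltransferase genes higher in CD8+ cells by 2-fold or more was 3, and became 0 with normexp, 0 with the series values, 7 at 1.5-fold and 0 at 4-fold. The count higher in CD4+ cells was 5, and became 2 with normexp, 3 with the series values, 9 with no filter on background, 9 at 1.5-fold and 2 at 4-fold. The cause of these changes was not tested, apart from the fold and filter settings, which change the counts by construction. The count of other glycan genes at least 2-fold apart was 3, and became 1 with normexp, 1 with the series values, 1 with brighter probes only and 6 with the mean over probes. Over all genes the main setting gave 232 (CD8+) and 458 (CD4+) past 2-fold and normexp 122 (CD8+) and 220 (CD4+). With median scaling the all-gene median shifted by 0.14, and the counts were 320 (CD8+) and 366 (CD4+). Of the 16 genes at least 1.5-fold apart, 10 moved by more than the technical spread with normexp, 9 with the series values and 4 with the mean over probes, and 0 changed sign. Filters, outlier spots and saturated probes leave the value of a gene that passes them as it is, and the scalings shift all genes alike, so these settings say little about single genes. The class median turned positive for the α2,3-sialyltransferases with median scaling (0.09) and for the fucosyltransferases with normexp (0.06) and the series values (0.07). It turned negative for the B3gnt genes with no filter (-0.12) and with brighter probes (-0.02). No paired analysis was possible because each cell type has 1 array. Differences between mice, sorts or labelling reactions could not be measured, and genes with signals near background are the least certain.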

Other observations

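Some glycosyltransferase genes are next to each other in RefSeq with no other protein-coding gene between them. Of these pairs only St6galnac4 and St6galnac6 were both measured on both arrays, and they lay on opposite sides of 0, with log2 differences (CD8+ minus CD4+) of 0.61 and -0.53 (0.50 and -0.15 with normexp on the median signal). The dimmest probe of St8sia1 had a processed signal of 8.40 on the CD8+ array, not well above background, and 35.9 on the CD4+ array, so that the 3 probes of this gene point the same way by different amounts.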
